A study of Homo sapiens with 6 samples.

Results

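The genes described here encode the cell surface receptors, adaptor, caspases and caspase inhibitors through which a cell is committed to apoptosis. They are FAS, TNFRSF10A, TNFRSF10B, FADD, CFLAR, CASP8, CASP9, XIAP and BIRC5, chosen by gene symbol in the probe annotation of the array. The 9 genes are read by 15 probes, of 27216 probes that carry a gene symbol (17411 genes) among 243504 spots. The rule uses no measured value.

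RNA came from INA-6, a human multiple myeloma cell line that depends on interleukin-6 (IL-6) for growth and survival. Both groups were first deprived of IL-6 for 13 h. The withdrawn group was harvested then, and the restimulated group received IL-6 for 1 h before harvest. The comparison asks which transcripts differ after the return of IL-6. No array holds cells kept 1 h longer without IL-6, so the added hour and the handling cannot be told apart from IL-6. Each group holds 3 arrays that the labels call biological replicates. All cells are of 1 line, and no cells kept in IL-6 throughout were analysed here, so no level before withdrawal is known.

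Apoptosis can be started from outside or from within the cell. Ligands such as TRAIL and FAS ligand cluster their receptors, the adaptor FADD is recruited to the receptor tails, and FADD in turn gathers the initiator caspase encoded by CASP8, which cuts and activates executioner caspases. CFLAR encodes cFLIP, a relative of CASP8 that competes for places in this complex. The internal route runs through cytochrome c, APAF1 and the initiator caspase encoded by CASP9. XIAP blocks CASP9 and the executioner caspases directly, whereas survivin, the product of BIRC5, belongs to the same protein family by its zinc-binding domain and is known above all for its work in chromosome segregation. In plasma cells, IL-6 signals through STAT3 and is a survival factor.

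None of the 9 genes changed between withdrawn and restimulated cells by the test used. With limma, a linear model with a variance estimate moderated across genes, and Benjamini-Hochberg adjustment over the 12703 genes tested at a threshold of 0.05, 0 of the 9 passed, 0 had an unadjusted p under 0.05, where 7.99% of all genes had one, and over all genes 0.244% passed (31 genes, of which 30 were higher after restimulation, 0.236% of those tested, and 1 lower, 0.00787%). Each gene was represented by its brightest tested probe. The log2 differences (restimulated minus withdrawn) of the 9 genes lay between -0.06 and 0.31 with a median of 0.03, beside a median of 0.01 over all genes tested. The 95% intervals of all 9 differences stayed within a 2-fold change in either direction, as did those of 98% of all genes, and changes smaller than these intervals could not be told from none with 3 arrays a group. For probes near the array median, such as that of FAS, these intervals bound the signal and may not bound the change in transcript. The same holds for the CASP8 probe used, which had 1 array at the top of the scale. In RNA from whole cultures, fewer cells that carry a transcript and less of it per cell cannot be told apart. Over all 15 probes, 0 passed the same threshold after adjustment over 122102 probes, of which 1.83% passed. Of the 15 probes, 1 had an unadjusted p under 0.05, as did 13.4% of all probes.

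The arrays did register the stimulus. SOCS3, a feedback inhibitor that STAT3 induces, rose by 3.87 ± 0.13 (SE) on the log2 scale (adjusted p = 0.000634, limma). Of 7 listed IL-6 response genes, 4 passed the threshold, where 0.244% of all genes did. The list was chosen with earlier results of these data known, so this count is no independent check. In the plot of level against difference, 8 of the 9 genes lie within the middle 95% of all genes, from -0.35 to 0.31, and CFLAR lies just above its upper bound.

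**Figure D1:**
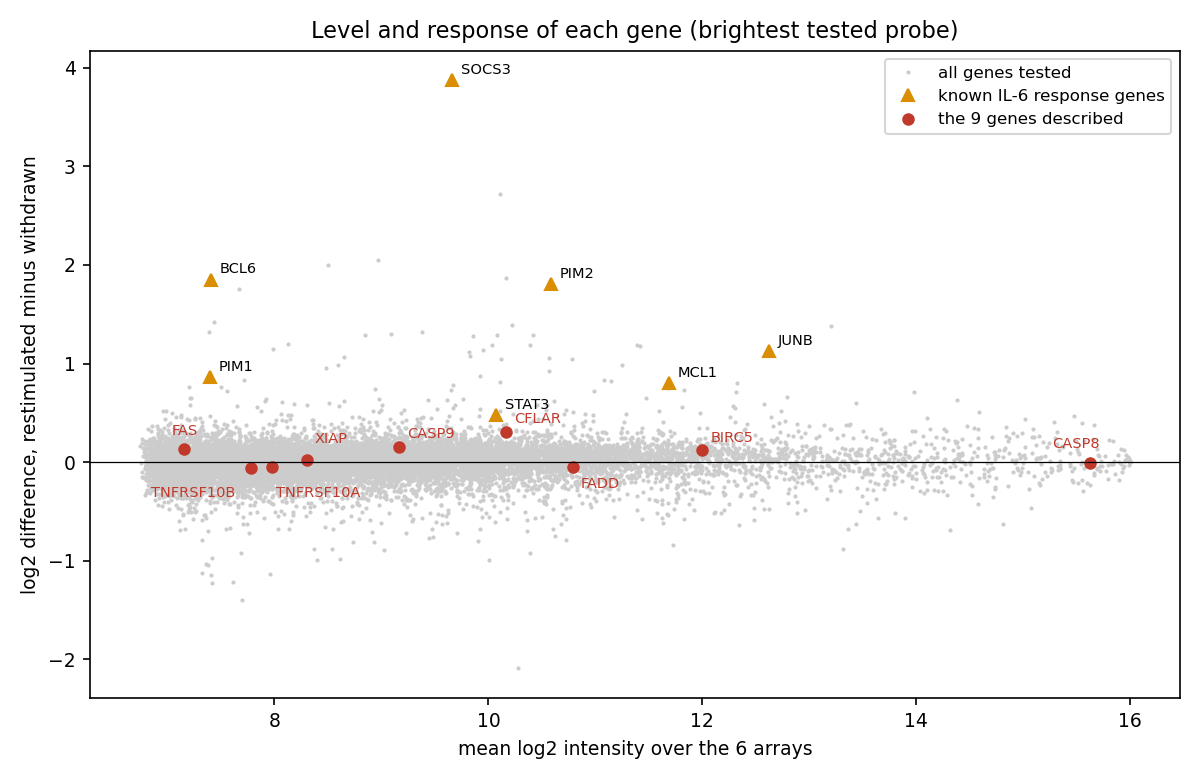
Each point is a gene represented by its brightest tested probe, with the mean log2 intensity over the 6 arrays on the x axis and the log2 difference, restimulated minus withdrawn, on the y axis. The 9 genes (red) lie between -0.06 and 0.31, whereas SOCS3 (the highest triangle) lies at 3.87.

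The deposited values are quantile-normalized, which sets the medians of the 6 arrays (6.84 to 6.85 on the log2 scale) nearly equal, and 0.719% to 0.90% of spots sat at 16, the highest value. Pearson's r over tested probes was 0.991 to 0.994 within the restimulated arrays, 0.986 to 0.993 within the withdrawn arrays and 0.982 to 0.990 between the groups. All 8 plasma cell markers checked lay above the array median on every array. Their summed log2 level was 90.9 to 91.9 after restimulation and 87.5 to 88.3 in withdrawn cells. Of their 8 differences, 5 were positive and 3 negative, where 53.2% of all genes were positive. PRDM1 passed the threshold at 1.29 ± 0.07 (adjusted p = 0.00286, limma), as did 0.244% of all genes. What the higher sum reflects was not tested. By contrast, 0 of 6 fibroblast markers, 2 of 7 T and NK cell markers (CD3E and CD2) and 2 of 7 myeloid markers (CD14 and ITGAM) lay above the median on every array. Of the erythroid markers, 3 of 4 did (HBB, HBA1 and ALAS2), with sums of 29.1 to 29.6 and 29.5 to 30.5. Of all 17411 genes, 11643 had a probe above the median on every array, and that median is over all spots. The summed T and NK cell markers ranged from 50.9 to 51.7 after restimulation and from 51.6 to 53.2 in withdrawn cells, the myeloid markers from 48.7 to 49.3 and from 48.9 to 50.03, and their part in the results was not tested.

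The promoters of these genes were searched for the letters that STAT proteins and NF-kappaB are known to bind, since both families take part in cytokine responses. Windows of 300 bases (250 before to 50 after a gene start) came from RefSeq on GRCh38.p14, and 16 windows of 6 of the genes were searched on both strands. TNFRSF10A, TNFRSF10B and BIRC5 were not searched. The STAT letters TTCNNNGAA, which read alike on both strands, stood in 7.657% of 35116 windows of all genes and in 1 of the 16, a window of CASP8. The NF-kappaB consensus stood in 11.27% of all windows and in 2 of the 16, a window of FAS and a window of CFLAR. SOCS3, the strongest responder of the list, had neither motif in its 2 windows. Over 8 windows of 6 listed IL-6 response genes, the STAT letters stood in 1 and the NF-kappaB consensus in 0. The 3 matches are shown with 10 flanking bases on each side because they are the stretches of these promoters that carry either motif. Capitals mark the motif, and all run 5′ to 3′ on the plus strand:
CASP8, STAT letters, chr2:201233253-201233281: aaaattatttTTCCAAGAAgaaaataaac
FAS, NF-kappaB consensus, chr10:88991264-88991293: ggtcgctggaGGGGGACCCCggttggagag
CFLAR, NF-kappaB consensus, chr2:201118609-201118638: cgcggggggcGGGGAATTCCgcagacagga
The motif began 200 bases before the start used for its window in CASP8, 157 before it in FAS and 97 before it in CFLAR. It stood in 1 of 3 windows of CASP8, 1 of 3 of FAS and 1 of 4 of CFLAR. The sites do not overlap each other. A match is a stretch of letters and was not tested for binding, and a window with no match says only that these letters are not in it.

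All 15 probes lay above the array median on all 6 arrays, so all were tested. Relative to the other genes tested, by brightest probe, CASP8 stood at the 98.5th percentile of level, BIRC5 at the 92.0th, FADD at the 83.4th, CFLAR at the 75.9th and CASP9 at the 58.7th. XIAP stood at the 39.4th, TNFRSF10A at the 31.2nd, TNFRSF10B at the 26.2th and FAS at the 9.97th percentile. A probe's brightness depends on its sequence as well as on its transcript, so this order ranks probes and no test between them was made.

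**Figure D2:**
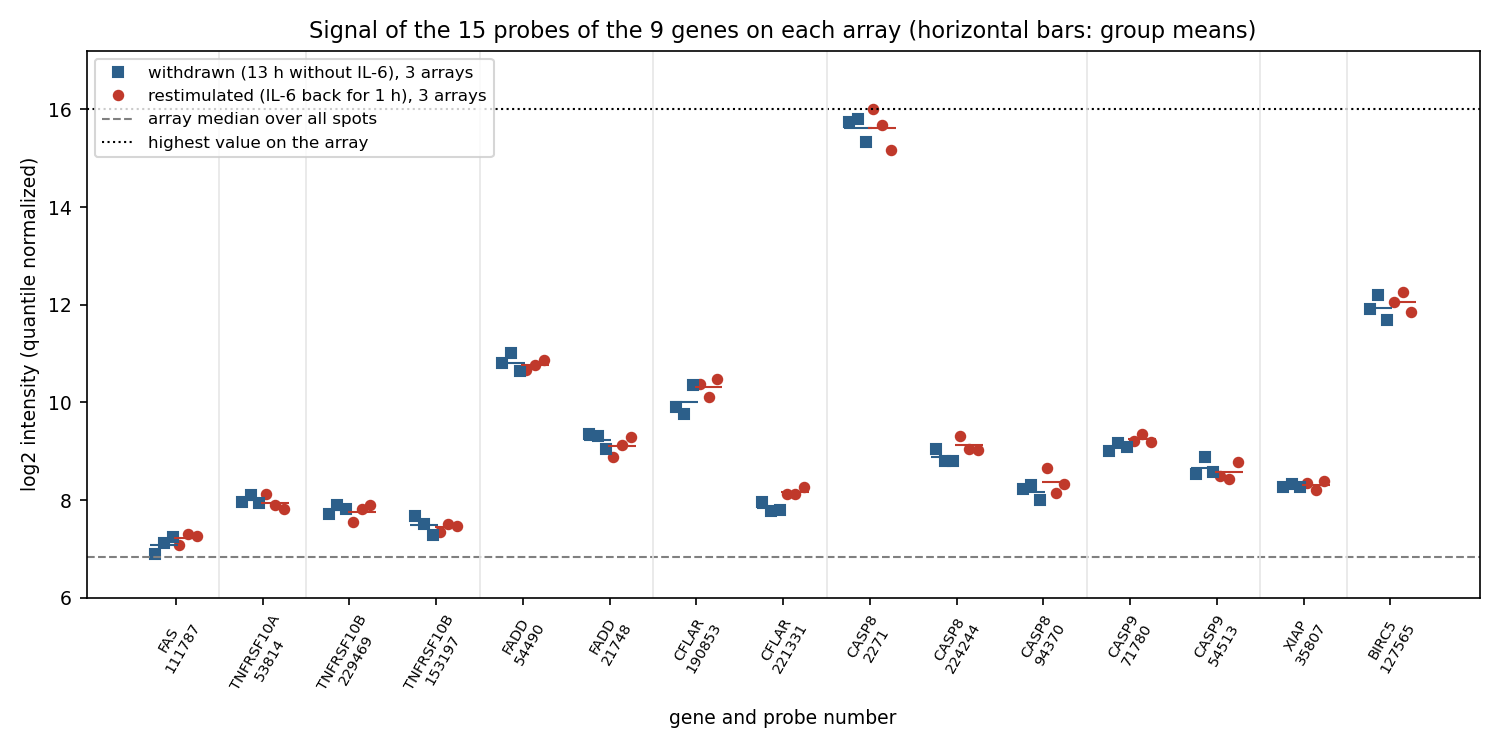
Log2 intensity (y axis) of each probe of the 9 genes (x axis) on each of the 3 withdrawn (blue squares) and 3 restimulated arrays (red circles), with group means as bars. The death receptor probes sit close to the array median (dashed), 1 CASP8 probe sits at the top of the scale (dotted), and the groups overlap for all probes except CFLAR 221331 and CASP9 71780.

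Among the receptors, FAS (CD95, the receptor of FAS ligand) had the dimmest probe. Its probe read 7.08, 7.30 and 7.27 on the restimulated arrays and 6.89, 7.13 and 7.25 on the withdrawn arrays. The lowest value is a withdrawn array, but the withdrawn array 3 exceeded the restimulated array 1, so the groups overlapped. The log2 difference was 0.13 ± 0.12 (SE, n = 3 a group), a fold of 1.09, with an adjusted p over genes of 0.836 in limma. It was 0.029 without the withdrawn array 1 and 0.21 without the withdrawn array 3.

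TNFRSF10A and TNFRSF10B encode the TRAIL receptors DR4 and DR5. The TNFRSF10A probe read 8.13, 7.90 and 7.81 after restimulation against 7.96, 8.10 and 7.95 in withdrawn cells. Restimulated arrays held both the highest and the lowest value, and the log2 difference was -0.05 ± 0.10 (95% interval -0.30 to 0.19, adjusted p = 0.930, limma). TNFRSF10B was read by a pair of probes. Probe 229469 read 7.54, 7.82 and 7.89 against 7.71, 7.90 and 7.81, and probe 153197 read 7.34, 7.51 and 7.47 against 7.66, 7.52 and 7.28. Both sets overlapped, with log2 differences of -0.06 ± 0.11 and -0.05 ± 0.11. The intervals of the receptors' differences reached no further than 0.42 in either direction. These probes averaged 0.31 (FAS) to 1.13 (TNFRSF10A) above the array median. So close to it, the intervals bound the signal and may not bound the change in transcript.

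FADD, the adaptor that links the receptors to CASP8, was bright and showed no separation of the groups. Probe 54490 read 10.65, 10.76 and 10.87 after restimulation and 10.80, 11.01 and 10.63 in withdrawn cells, a log2 difference of -0.05 ± 0.12 (adjusted p over genes = 0.936, limma). Probe 21748 read 8.88, 9.13 and 9.30 against 9.35, 9.30 and 9.05. Its difference was -0.13 ± 0.14. Over the 6 arrays the values of both FADD probes went together with r = 0.79, the closest of the probe pairs here.

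CFLAR had the largest difference of the 9 genes, and 5.96% of all genes had a larger one in either direction. The brighter probe, 190853, read 10.37, 10.10 and 10.48 after restimulation and 9.90, 9.77 and 10.36 in withdrawn cells. The withdrawn array 3 lay within the range of the restimulated arrays. The log2 difference was 0.31 ± 0.18 (95% interval -0.14 to 0.76, fold 1.24), and its adjusted p over genes was 0.753 in limma. Without the withdrawn array 3 the difference was 0.49, and without the withdrawn array 2 it was 0.19. Leaving out any other single array gave 0.23 to 0.42.

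The dimmer CFLAR probe, 221331, was the most separated of the 15. It read 8.12, 8.11 and 8.27 after restimulation and 7.95, 7.77 and 7.79 in withdrawn cells, so every restimulated array lay above every withdrawn one. Its log2 difference was 0.33 ± 0.08 (95% interval 0.13 to 0.53, fold 1.26). The unadjusted p of 0.00732 became 0.153 after adjustment over all probes in limma, and it did not pass. Of all probes, 8.83% had every restimulated array above every withdrawn one (17.4% did not overlap in either direction), and of the 15 probes 2 did (CFLAR 221331 and CASP9 71780). With the mean over the CFLAR probes in place of the brightest, the difference was 0.32 and did not pass (adjusted p over genes = 0.539, limma). Its unadjusted p of 0.0238 in limma was the smallest of the 9 genes by that measure. The response of the brighter CFLAR probe minus that of the dimmer one was -0.02 ± 0.18 (95% interval -0.43 to 0.39, adjusted p over 5910 probe pairs = 0.998, limma). None of the 6 probe pairs of these genes passed, while 0.0338% of all pairs did.

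**Figure D3:**
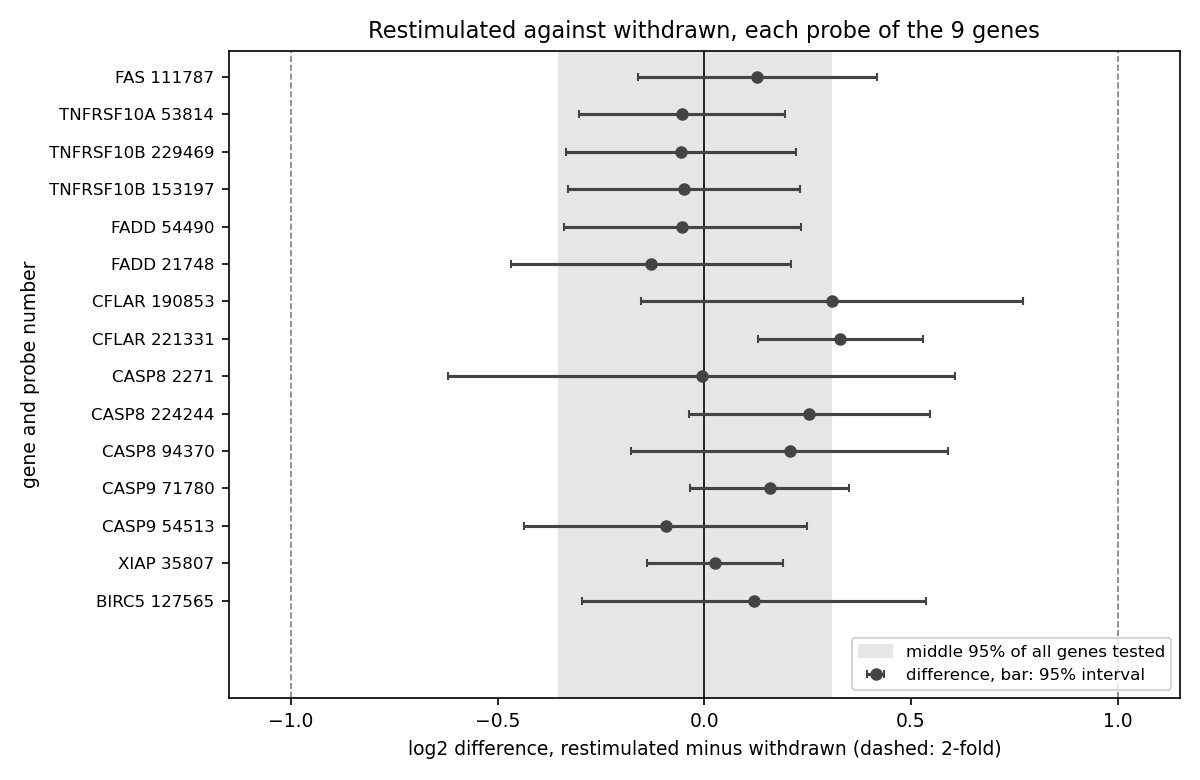
Log2 difference, restimulated minus withdrawn (x axis), of each probe of the 9 genes (y axis), with 95% intervals from the fit over all probes as bars. All intervals lie within a 2-fold change (dashed lines), and the interval of CFLAR 221331 is the one that leaves out 0. The grey band, from -0.35 to 0.31, holds the middle 95% of all genes tested, by brightest probe, and is not a band over probes. Of all probes, 10.3% had a larger difference in either direction than CFLAR 221331.

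CASP8, the initiator caspase of the receptor route, gave readings that depended on the probe. Probe 2271 read 16, 15.69 and 15.16 after restimulation and 15.74, 15.81 and 15.33 in withdrawn cells. The restimulated array 1 was at the highest value the scale allows, so a rise on that array could not be read. This probe represents the gene in the fit over genes, with a log2 difference of -0.01 ± 0.24 (adjusted p = 1, limma), the widest error of the 9.

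The remaining CASP8 probes lay far below the top of the scale. Probe 224244 read 9.32, 9.04 and 9.02 against 9.04, 8.79 and 8.79, and its groups overlapped by a margin under 0.02, with the withdrawn array 1 at 9.04. Its log2 difference was 0.25 ± 0.12 (95% interval -0.04 to 0.55, unadjusted p = 0.0758, adjusted p over probes = 0.441, limma). Probe 94370 read 8.65, 8.15 and 8.33 against 8.22, 8.30 and 8.0, a difference of 0.21 ± 0.15. With the mean over the 3 probes in place of the brightest, the difference of CASP8 turned from -0.01 to 0.15 and did not pass. The 3 probes give no single level for CASP8, and whether probe 2271 reads CASP8 alone was not tested, so the gene's difference of -0.01 and its percentile of level rest on that probe alone. The response of the brightest minus that of probe 224244 was -0.26 ± 0.19, and minus that of probe 94370 -0.21 ± 0.18 (adjusted p over pairs = 0.985 for both, limma).

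By brightest probe, CASP9, the initiator caspase of the mitochondrial route, had the smallest p of the 9 genes. Its brighter probe, 71780, read 9.20, 9.36 and 9.18 after restimulation and 9.00, 9.17 and 9.10 in withdrawn cells. The groups did not overlap, though the closest arrays were 9.18 and 9.17, and 12.2% of all genes had groups that did not overlap in either direction. The log2 difference was 0.16 ± 0.08 (95% interval -0.04 to 0.35, fold 1.12, adjusted p over genes = 0.716, limma). The dimmer probe, 54513, read 8.49, 8.43 and 8.78 against 8.53, 8.88 and 8.57, with a difference of -0.09 ± 0.14. The probes' responses differed by 0.25 ± 0.16 (95% interval -0.11 to 0.61, adjusted p over pairs = 0.985, limma), their values went together with r = -0.20 over the 6 arrays, and with their mean the difference of CASP9 was 0.03.

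By its brighter probe, 71780, the genes most like CASP9 over the 6 arrays were REEP5 (r = 0.998), NDUFAF2 (r = 0.996) and SS18L2 (r = 0.995). These are descriptions over 6 points that share their arrays, and 242 of the 12703 genes tested had r above 0.9 with CASP9. The log2 differences of REEP5, NDUFAF2 and SS18L2 were 0.15, 0.13 and 0.13, and genes picked by r share the pattern by choice. The dimmer CASP9 probe, 54513, did not follow it (r = -0.20 with probe 71780).

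XIAP, the direct caspase inhibitor, was the most even of the 9 genes. It read 8.34, 8.21 and 8.39 after restimulation and 8.27, 8.32 and 8.27 in withdrawn cells. The withdrawn values lay inside the range of the restimulated ones. The log2 difference was 0.03 ± 0.07 (adjusted p over genes = 0.952, limma), and its 95% interval, -0.14 to 0.20, was the narrowest of the 9.

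BIRC5 was bright in both groups and varied between arrays. It read 12.06, 12.25 and 11.85 after restimulation and 11.92, 12.21 and 11.69 in withdrawn cells. The groups overlapped, and the spread within a group exceeded the difference between the means, 0.12 ± 0.17 (adjusted p over genes = 0.898, limma). Survivin acts with INCENP, CDCA8 (borealin) and the kinase AURKB in the chromosomal passenger complex, whose 3 genes had log2 differences of -0.07 ± 0.12, 0.02 ± 0.10 and -0.02 ± 0.10, none of which passed. BIRC5 rises and falls with the cell cycle. Of 14 mitosis genes listed beside it, 0 passed and 2 had an unadjusted p under 0.05, AURKA at 0.30 ± 0.09 (adjusted p = 0.486, limma) and KIF11 at 0.29 ± 0.11 (adjusted p = 0.580, limma). Over all genes 7.99% had an unadjusted p under 0.05. Of the 14, 11 differences were positive and 3 negative, with a median of 0.04, where 53.2% of all genes were positive.

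The other genes of the pathway were read from 8 lists by role, which hold 47 genes, of which 38 were tested. None passed in either direction, 3 (7.89%) had an unadjusted p under 0.05, as did 7.99% of all genes, and 18 differences were positive and 20 negative. Their median was -0.01, and they ranged from -0.45 to 0.47. Every restimulated array lay above every withdrawn one for 1 of the 38 (CASP10) and below for 2 (TRAF1 and CASP6). Over all genes, 12.2% had groups that did not overlap in either direction.

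The 4 death ligand genes were all tested, with differences from -0.09 to 0.19. TNFSF10, which encodes TRAIL, the ligand of TNFRSF10A and TNFRSF10B, was at 0.19 ± 0.14 (adjusted p = 0.809, limma). Of 7 other death and decoy receptors, TNFRSF1A and TNFRSF1B passed the filter on low values. TNFRSF1A, the main receptor of TNF, read 10.21, 10.13 and 10.65 after restimulation and 10.73, 10.64 and 10.88 in withdrawn cells. Its difference of -0.42 ± 0.15 had an unadjusted p of 0.0339 and an adjusted p of 0.574 in limma, and the groups overlapped by a margin under 0.01. The decoy receptors of TRAIL, TNFRSF10C, TNFRSF10D and TNFRSF11B, and also TNFRSF21 and TNFRSF25, lay above the median on 0 to 2 arrays, with means of 6.53 to 6.81, and were not tested.

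All 11 adaptors and complex components were tested. TRAF1, which binds the TNF receptor complexes, had the smallest p at a difference of -0.20 ± 0.07 (unadjusted p = 0.0373, adjusted p = 0.595, limma). The list's median was -0.02. The 6 other caspases listed were all tested. CASP10, the close relative of CASP8 that also binds FADD, had the largest positive difference of all 38 pathway genes and CASP6, an executioner, the largest negative one. CASP6 read 8.34, 8.31 and 8.43 after restimulation and 8.44, 8.71 and 9.28 in withdrawn cells, with the withdrawn array 3 far above the rest. The groups did not overlap, though the closest arrays were 8.43 and 8.44. The difference of CASP6 was -0.45 ± 0.21 (adjusted p = 0.696, limma) and -0.21 without the withdrawn array 3.

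**Figure D4:**
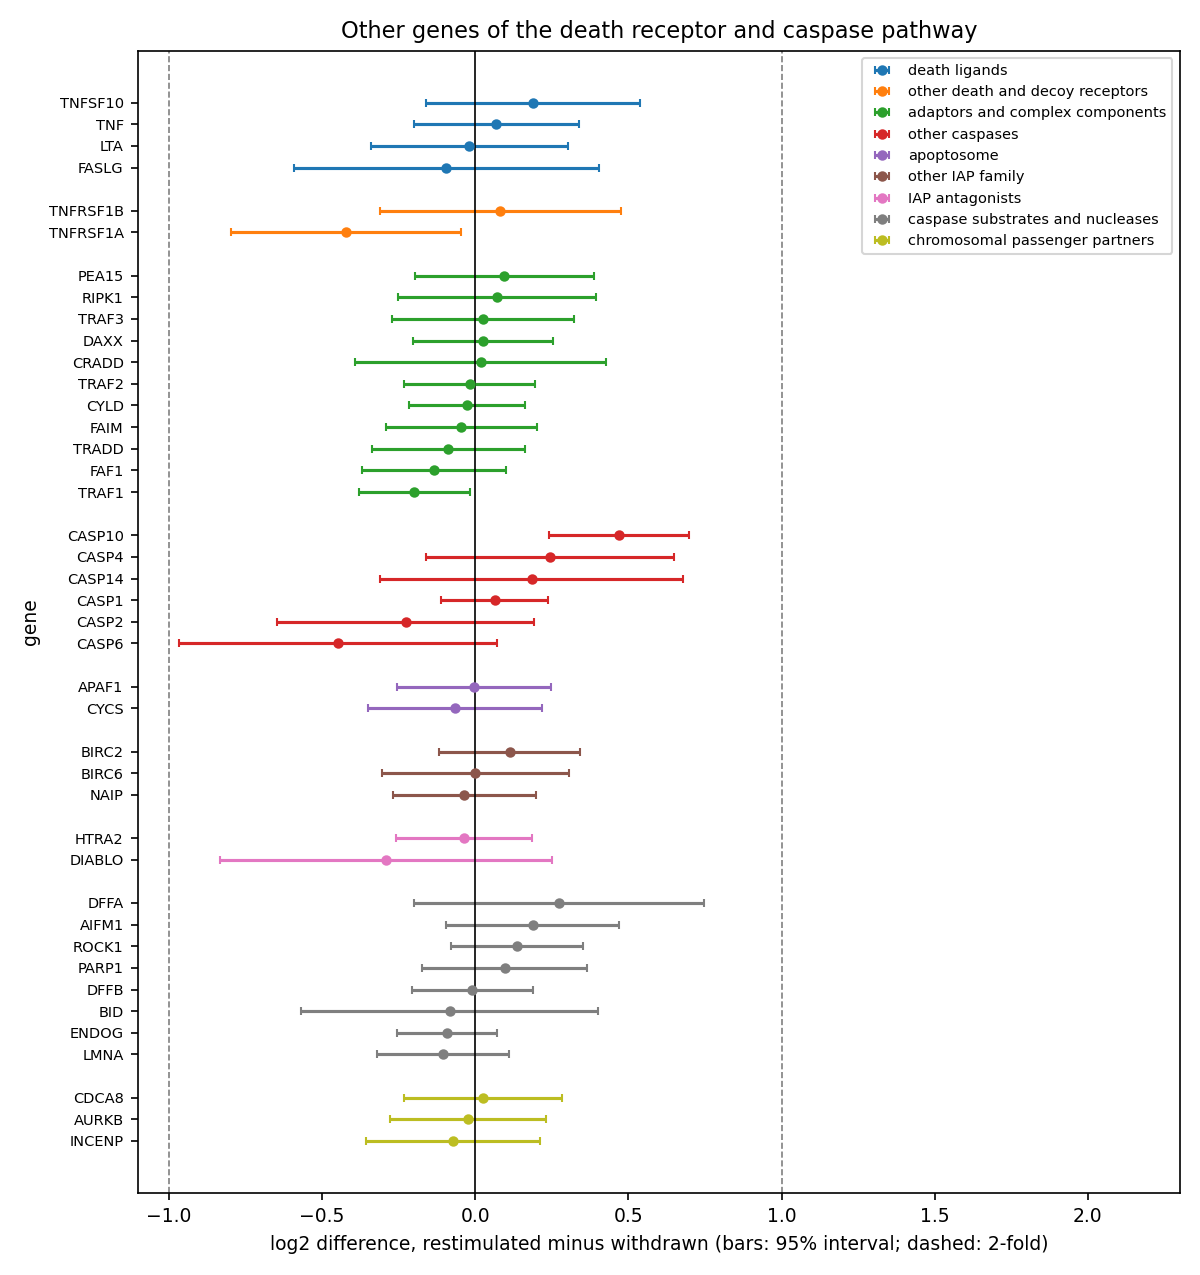
Log2 difference, restimulated minus withdrawn (x axis), of 41 other genes of the pathway by role (y axis), which are the 38 genes of the 8 lists and the 3 passenger complex genes, with 95% intervals as bars. All intervals lie within a 2-fold change (dashed lines), and those of TNFRSF1A, TRAF1 and CASP10 leave out 0.

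In the apoptosome, where CASP9 is activated, CYCS (cytochrome c) stood at -0.07 ± 0.12 and APAF1 at 0.00 ± 0.10. Of 5 other genes of the inhibitor family of XIAP and BIRC5, BIRC2 was at 0.11 ± 0.09, NAIP at -0.04 ± 0.09 and BIRC6 at 0.00 ± 0.12. BIRC3 and BIRC7, with means of 6.62 and 6.58, were above the array median on 0 arrays. Of 4 antagonists of these inhibitors, DIABLO (Smac), which is released from mitochondria and binds XIAP, was at -0.29 ± 0.22 (adjusted p = 0.809, limma). Its withdrawn arrays read 8.32, 8.58 and 9.18, and the difference was -0.05 without the withdrawn array 3 and -0.48 without the withdrawn array 1. HTRA2 was at -0.04 ± 0.09. XAF1 and SEPTIN4 were above the median on 0 arrays. All 8 substrates and nucleases were tested, between -0.11 and 0.27, and none passed.

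CASP10 had the smallest p of the pathway genes and lies between CFLAR and CASP8 on chromosome 2. Probe 47907 read 10.03, 10.27 and 10.15 after restimulation and 9.57, 9.78 and 9.69 in withdrawn cells, with no overlap. The log2 difference was 0.47 ± 0.09 (95% interval 0.24 to 0.70, fold 1.38), with an unadjusted p of 0.00249 and an adjusted p over genes of 0.268 in limma, and it did not pass. Probe 161142 read 9.43, 9.39 and 9.34 against 8.98, 9.16 and 9.04, also without overlap, and differed by 0.33 ± 0.07. Probe 33540 read 9.55, 9.35 and 9.73 against 9.08, 9.46 and 9.29, with overlap, and differed by 0.27 ± 0.14. After adjustment over all probes the 3 had p-values of 0.0905, 0.105 and 0.504 in limma. Of all probes, 8.83% had every restimulated array above every withdrawn one.

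**Figure D5:**
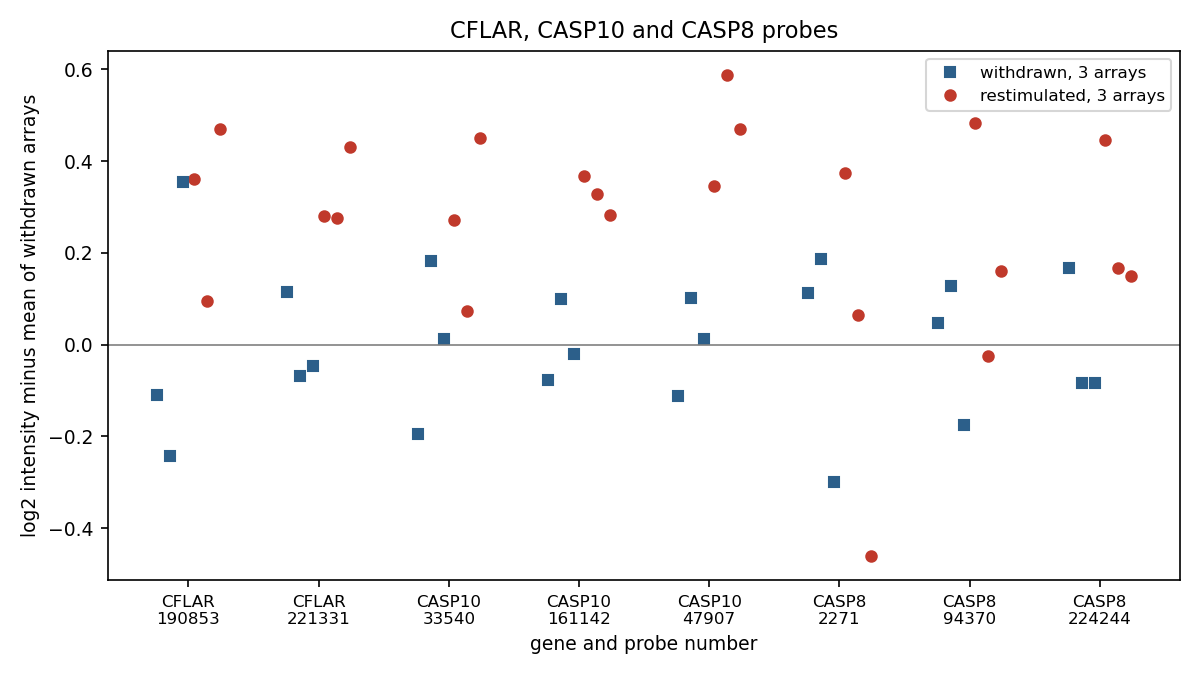
Log2 intensity minus the mean of the withdrawn arrays (y axis) for each probe of CFLAR, CASP10 and CASP8 (x axis), with 3 withdrawn (blue squares) and 3 restimulated arrays (red circles). The groups do not overlap for CFLAR 221331, CASP10 161142 and CASP10 47907, nor do they for 17.4% of all probes. The CASP8 probe at the top of the scale, 2271, has the widest spread.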

How the data were processed

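RNA was amplified with a random primer, labeled with Cy3 and hybridized to a custom Agilent array that was read with a GenePix scanner. The authors deposited quantile-normalized log2 intensities, 1 column an array; R 2.9.0 and limma appear in the submitters' processing notes. Whether background was corrected is not given in the sources used. The number of arrays limits the precision.

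Probes were tied to table rows by a grid rule inferred from the layout and not stated in the files. Under it the mean levels of the first 2 probes of a gene correlated with r = 0.431 over 7157 genes, against 0.019 for equal numbers. Of the 15 probes 13 matched RefSeq (GRCh38.p14, names only) by accession and 2 by symbol.

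Probes above the array median on at least 3 of 6 arrays were tested (122102). The groups were set against each other in R 4.3.3 by limma 3.58.1 (lmFit and eBayes, two-sided, Benjamini-Hochberg, 0.05), without a block, over probes, over genes by brightest probe, and over probe pairs. The scripts were tested on simulated data. For no single gene can 3 arrays against 3 give an exact permutation p under 0.1. All probes of the 9 genes are named, and up to 3 genes of each other list, those with the smallest p; others named were chosen after their values were seen. Genes and lists were chosen with earlier results of these data known. Some genes of the pathway are not reported here.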

Additional observations from a re-analysis of the deposited data

How the results depend on the processing

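Of 16 alternatives to the processing, none brought a probe or a gene of the 9 past the threshold. Adding the study's filter on spread (an interquartile range above 0.5) left 5746 probes and none of the 15, so it gave no value for the 9 genes. The 95% intervals, 3 arrays a group and the top of the scale for CASP8 limit what could be seen.

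Over all genes, 31 of 12703 passed. With the filter on spread, 74 of the 324 genes left passed. The count was 58 of 12625 without spots at the top of the scale on all arrays. It was 78 with an intensity trend and robust prior, 1 with the replicate block and 6 to 15 without 1 array. Over all probes, 2239 of 122102 passed, against 1324 of 102374 with probes above the median on all 6 arrays. With the filter on spread, 3590 of the 5746 probes left passed, and without spots at the top 3580 of 120387. The trend gave 3860, the replicate block 0 and leaving out 1 array 320 to 1042. A filter on spread over all 6 arrays favours genes and probes whose groups differ, so its counts cannot be set beside the others. Of probe pairs 2 passed, against 1 with the block and 1 to 1 without 1 array. The replicate numbers did not pair the arrays (r of the deviations of same-numbered arrays -0.01, -0.07 and -0.26), and with the block 0 of the 9 genes passed, as without it. The cause of these shifts was not tested.

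The direction turned with the mean over probes for CASP8 (0.151) and CYCS (0.0248), and with array weights for AURKB (0.00967) and for the response of the brighter minus the dimmer probe of TNFRSF10B (0.0846) and of CFLAR (0.0645). Without 1 array the differences ranged from -0.143 to 0.0137 for TNFRSF10A, -0.126 to 0.0475 for TNFRSF10B 229469, -0.151 to 0.0389 for TNFRSF10B 153197, -0.142 to 0.0454 for FADD 54490, -0.198 to 0.22 for CASP8 2271, -0.20 to 0.0143 for CASP9 54513, -0.011 to 0.0752 for XIAP, -0.0072 to 0.254 for BIRC5, -0.127 to 0.0417 for CYCS, -0.095 to 0.0554 for AURKB, -0.145 to 0.0961 for the TNFRSF10B pair and -0.133 to 0.18 for the CFLAR pair. FAS ranged from 0.029 to 0.209, CFLAR 190853 from 0.187 to 0.486, CASP9 71780 from 0.103 to 0.197, CASP6 from -0.634 to -0.215 and DIABLO from -0.476 to -0.05. CFLAR 221331 ranged from 0.28 to 0.39 over its alternatives (adjusted p 0.133 to 0.372, limma) and CASP10 from 0.35 to 0.53 (adjusted p 0.111 to 0.709, limma).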

Other observations

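CFLAR, CASP10 and CASP8 stand in this order on chromosome 2 in RefSeq, and the genes beside them were looked up after the values of CASP10 were seen. The CFLAR and CASP10 probes had log2 differences of 0.27 to 0.47, and the CASP8 probes of 0.25, 0.21 and, at the top of the scale, -0.01. By brightest probe, which gives -0.01 for CASP8, 53.2% of differences over all genes were positive. No share of positive differences was taken over probes. Of all probes tested, 11.6% had a larger difference in either direction than CFLAR 190853 and 10.3% than CFLAR 221331. For the CASP8 probes these shares were 16.8% (224244), 23.9% (94370) and 95.3% (2271). They were not taken for the CASP10 probes. None of the CFLAR, CASP10 and CASP8 probes passed the adjustment over all probes. NDUFB3, a respiratory chain subunit on the CFLAR side, read 11.80, 11.98 and 11.66 after restimulation and 11.64, 11.62 and 11.64 in withdrawn cells, a difference of 0.18 ± 0.09. On the CASP8 side, the TRAK2 probes differed by 0.02 ± 0.12 and -0.02 ± 0.11, and the STRADB probes by -0.06 ± 0.14 and 0.24 ± 0.09. Neighbouring probes share the arrays, so these values are not independent of each other.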
